A study of Mus musculus with 12 samples.

Results

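The 10 genes described here encode growth factors of myeloid cells and their receptors, and were taken as the rows of the expression table with the symbols Csf1r, Csf1, Il34, Csf2ra, Csf2rb, Csf2rb2, Csf3r, Flt3, Kit and Il3ra. All 10 were among the 37775 genes of the table, and all 10 passed the expression filter that left 22118 genes for testing. They were measured by bulk RNA-seq in 4 fractions of monocyte-macrophage lineage cells (Mo-Macs), with 3 libraries per fraction. Each library was made from mRNA of between 5000 and 80000 cells, sorted from ear skin of wild-type (WT) male BALB/c mice aged 7 to 12 weeks. All mice carried the same treatment, IgE-mediated chronic allergic inflammation (IgE-CAI), in which 300 μg of IgE against the hapten TNP was given intravenously and 10 μg of the allergen TNP-OVA was injected into the ear skin on the following day. Skin was taken on day 5. From CD45+CD11b+SiglecF-Ly6G- cells, Ly6ChiPD-L2lo cells were sorted as classical monocytes (Classical mono), Ly6ChiPD-L2hi cells as early classical monocyte-derived macrophages (Early CMDM), Ly6CloPD-L2hi cells as late CMDMs (Late CMDM), and Ly6CloPD-L2lo cells as resident-like macrophages (Resident-like). The fractions are thus defined by surface proteins alone, and no untreated skin was part of these libraries. The labels do not say whether the 3 libraries of a fraction came from separate mice, so p-values measure the spread between these libraries, which may be technical.

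Macrophages and monocytes live and mature on a small set of secreted factors. CSF-1 and IL-34 are the ligands of CSF1R (CD115), the receptor tyrosine kinase that keeps most tissue macrophages alive, and in the skin IL-34 is made by keratinocytes while CSF-1 comes from fibroblasts and other stromal cells. GM-CSF and IL-3 each bind their own alpha chain (CSF2RA or IL3RA) and signal through a shared beta chain, CSF2RB, which acts through JAK2 and STAT5. Mice carry an additional beta chain gene, Csf2rb2, whose product pairs with the IL-3 receptor alone. CSF3R is the receptor of G-CSF, the growth factor of neutrophils, FLT3 is the receptor of dendritic cells and their progenitors, and KIT is the stem cell factor receptor of progenitors and mast cells.

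The pair of beta chain genes is nearly a duplication, which bears on how their reads can be told apart. Csf2rb (chr15:78325752-78353847, plus strand, GRCm38) and Csf2rb2 (chr15:78282507-78305721, minus strand) lie 20031 bp apart, and their coding sequences were identical at 92.9% of 2694 aligned positions. The first coding exon of each, 88 bp long, is shown because it carries the start codon and the copies differ there at only 3 bases, which are in capitals.

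Csf2rb (chr15:78335207-78335294, plus strand): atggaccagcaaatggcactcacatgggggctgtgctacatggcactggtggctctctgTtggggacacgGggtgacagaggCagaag

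Csf2rb2 (chr15:78298142-78298229, minus strand): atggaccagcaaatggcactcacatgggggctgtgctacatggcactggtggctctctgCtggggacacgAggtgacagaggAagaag

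Of all windows of 50 bases in the transcripts of Csf2rb, 12.3% also occurred in Csf2rb2, and 18.4% of those of Csf2rb2 occurred in Csf2rb. The counting could have split reads of these windows between the genes. Of the windows of Csf3r, 10.5% occurred in other genes. The largest share was with the gene model AC105061.2, in which 8.84% of the windows of Csf3r occurred. The windows of the other 7 genes occurred elsewhere in at most 0.0163%.

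Promoters of 300 bases, 250 before and 50 after the start site, were given by RefSeq (GRCm38) for 7 of the 10 genes. They were searched on both strands for the letters GAGGAA, the core bound by PU.1, the myeloid transcription factor that drives several of these receptor genes. The letters were found in Csf2ra, Csf2rb2, Csf3r and Kit, 4 of the 7, and in 28.3% of all 32851 promoters. These shares are in unlike units. A gene was counted with a match in any of its promoters, and some genes, such as Kit, had several. The bases before the start site are shown for the 3 of these genes with more than 15 CPM in all fractions, with the match in capitals (TTCCTC is the same core read on the other strand).

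Csf2ra (chr19:61228419-61228668, minus strand): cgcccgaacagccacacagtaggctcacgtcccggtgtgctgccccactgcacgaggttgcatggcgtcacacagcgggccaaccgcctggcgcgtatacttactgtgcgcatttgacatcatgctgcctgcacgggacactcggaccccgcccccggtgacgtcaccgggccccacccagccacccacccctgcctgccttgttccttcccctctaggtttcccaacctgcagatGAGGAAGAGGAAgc

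Csf2rb2 (chr15:78305722-78305971, minus strand): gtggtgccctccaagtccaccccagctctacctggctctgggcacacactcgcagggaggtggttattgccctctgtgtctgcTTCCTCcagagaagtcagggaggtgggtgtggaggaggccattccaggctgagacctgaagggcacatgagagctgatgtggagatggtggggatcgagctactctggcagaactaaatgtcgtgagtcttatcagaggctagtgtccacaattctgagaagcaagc

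Csf3r (chr4:126024409-126024658, plus strand): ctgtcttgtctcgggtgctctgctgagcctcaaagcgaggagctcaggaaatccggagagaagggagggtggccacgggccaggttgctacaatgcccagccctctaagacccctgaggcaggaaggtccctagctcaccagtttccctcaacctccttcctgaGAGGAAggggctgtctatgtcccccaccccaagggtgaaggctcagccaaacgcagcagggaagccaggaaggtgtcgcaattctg

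In Csf2ra the core stood as a tandem pair, beginning 14 and 8 bases before the start site. In Csf2rb2 it began 167 bases before the start site, with another match beyond it, and in Csf3r 86 bases before. The RUNX letters TGTGGT were in the promoters of 0 of the 7 genes and in 16.8% of all promoters. The C/EBP letters TTNCGNAA were in those of 0 of the 7 genes and in 2.47% of all promoters. A match of letters describes the sequence and not binding.

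Levels are given as CPM, counts scaled to the library total with TMM normalization, a method that assumes most genes do not change. Total counts were 12537178 to 19844113 per library, so that 3 counts, the limit that a count of 0 allows, corresponded to 0.151 to 0.239 CPM. This limit covers counting error only. Differences between fractions are log2 fold changes from edgeR's quasi-likelihood test on all 12 libraries, with their standard error (SE) and a Benjamini-Hochberg adjusted p over all 22118 genes, and a gene is called when this is under 0.05. The early CMDM libraries stood apart. Their summed keratinocyte markers (6 keratin and desmosome genes) had a median of 23800 CPM (17100 to 27200), against medians of 2370 to 3110 CPM in the other fractions. Their 8 defining Mo-Mac markers (Itgam, Cd14, Lyz2 and others, all detected in every fraction) summed to a median of 3300 CPM, against 6710 to 10200 CPM. The 10 leukocyte genes used as an alternative scale (Ptprc and 9 others) summed to 1217 to 1938 CPM in early CMDMs, 2618 to 2960 in late CMDMs, 4617 to 4713 in resident-like macrophages and 5008 to 5364 in classical monocytes. In such bulk samples, fewer cells of a type and less RNA per cell cannot be told apart. Scaling by the leukocyte genes moved the median log2 fold change of all genes by 1.80 for early CMDMs against classical monocytes, by 0.87 for late CMDMs and 0.16 for resident-like macrophages against classical monocytes, by -0.91 for late and -1.63 for resident-like against early CMDMs, and by -0.72 for resident-like macrophages against late CMDMs. Values on this leukocyte scale are given beside the members whose direction or call it changed.

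**Figure D1:**
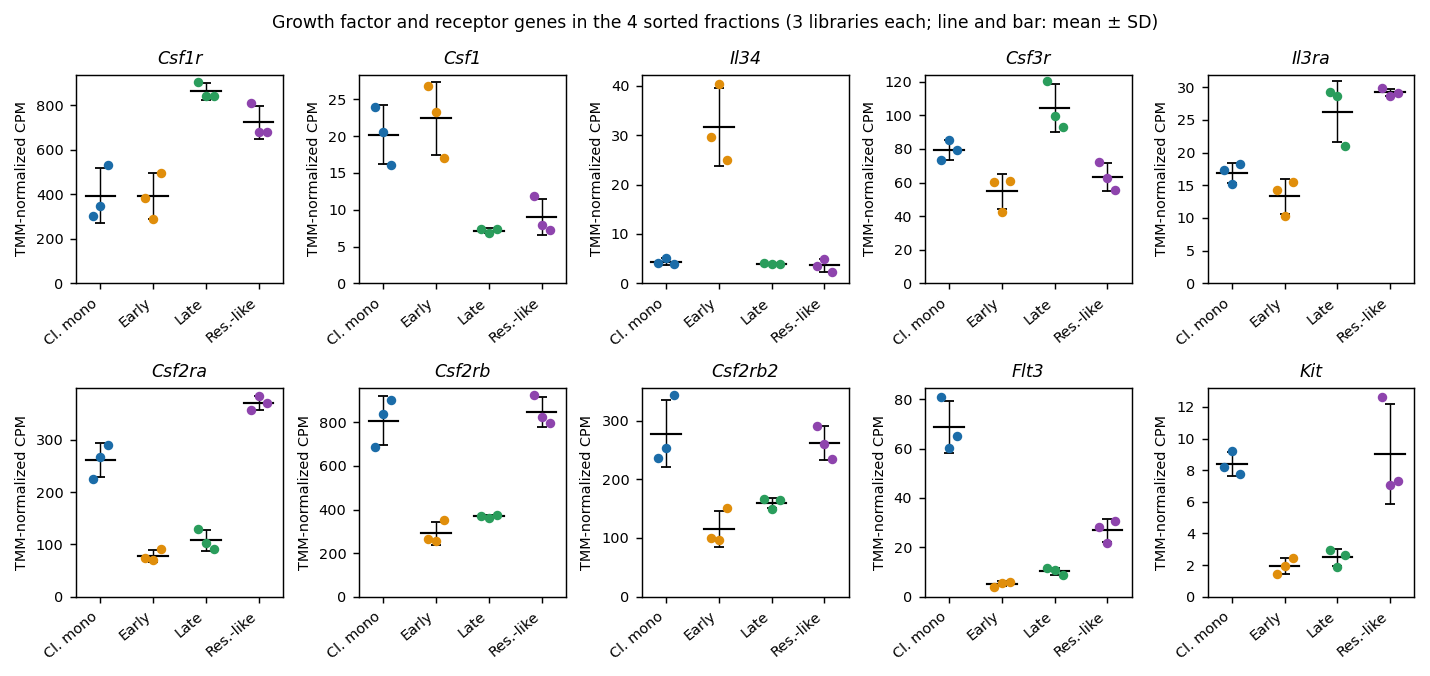
Level of each of the 10 genes in TMM-normalized CPM (vertical axes, from 0, with a scale for each gene) in the 4 fractions; points are libraries, and lines with bars are mean ± SD of 3 libraries. Csf1r was highest in late CMDMs (841 to 907 CPM), Il34 in early CMDMs (24.9 to 40.4 CPM), Flt3 in classical monocytes (60.4 to 80.8 CPM) and Csf2ra in resident-like macrophages (358 to 384 CPM).

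Csf1r had the highest level per length of the 10 genes in both CMDM fractions. The gene lies on chr18:61100598-61132149 (plus strand) and overlaps Hmgxb3 on the other strand. It was measured at 301, 348 and 534 CPM in classical monocytes, at 385, 291 and 497 CPM in early CMDMs, at 907, 842 and 841 CPM in late CMDMs, and at 810, 680 and 681 CPM in resident-like macrophages. The libraries of the Ly6Chi fractions overlapped with each other, while all 6 libraries of the Ly6Clo fractions lay above all 6 of the Ly6Chi fractions. Late CMDMs had 2.19 times the level of classical monocytes (log2 fold change 1.13, SE 0.20, edgeR adjusted p = 0.000459) and 2.21 times that of early CMDMs (log2 fold change 1.14, SE 0.20, adjusted p = 0.000489). The latter difference was 0.26 when scaled by leukocyte genes (adjusted p = 0.189). Resident-like macrophages had 1.83 times the level of classical monocytes (adjusted p = 0.00476) and 1.85 times that of early CMDMs (adjusted p = 0.00207), and the second of these turned to -0.72 under the leukocyte scaling. Early CMDMs and classical monocytes, neighbours in the order of levels, did not pass the test (log2 fold change -0.01, 95% interval -0.44 to 0.41, adjusted p = 0.963). The sign of this difference changed with the scaling, and on the leukocyte scale it was 1.76 and passed (adjusted p = 3.72e-10). Under TMM the Ly6Clo fractions also did not pass the test (resident-like against late CMDMs -0.26, interval -0.68 to 0.17, adjusted p = 0.382), although their libraries did not overlap. On the leukocyte scale this difference was -0.98 and passed (adjusted p = 4.82e-05). With only the 6 libraries of that comparison fitted, the adjusted p was 0.0441.

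The ligands of CSF1R had the reverse order or another one. Csf1 (chr3:107741048-107760469, minus strand) was measured at 24.0, 20.6 and 16.03 CPM in classical monocytes and at 26.8, 23.3 and 17.1 CPM in early CMDMs. It was at 7.32, 6.80 and 7.41 CPM in late CMDMs and at 11.8, 7.93 and 7.29 CPM in resident-like macrophages. All libraries of the Ly6Chi fractions lay above all libraries of the Ly6Clo fractions, the mirror image of Csf1r. Csf1 was 2.81-fold lower in late CMDMs than in classical monocytes (log2 fold change -1.49, SE 0.21, edgeR adjusted p = 3.87e-05) and 3.12-fold lower than in early CMDMs (log2 fold change -1.64, SE 0.21, adjusted p = 1.94e-05). In resident-like macrophages it was 2.23-fold lower than in classical monocytes (adjusted p = 0.000449) and 2.47-fold lower than in early CMDMs (adjusted p = 6.21e-05). Early CMDMs did not pass the test against classical monocytes (log2 fold change 0.15, interval -0.26 to 0.56) but passed it on the leukocyte scale (1.999, adjusted p = 1.22e-07). Under TMM, the test was also not passed by resident-like macrophages against late CMDMs (0.34, interval -0.12 to 0.79, and -0.39 when scaled by leukocyte genes).

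Fibroblast markers moved with Csf1. The sum of 6 fibroblast genes (Col1a1, Col1a2, Col3a1, Dcn, Lum and Dpt) was 3360 to 5830 CPM in classical monocytes, 3060 to 4330 in early CMDMs, 489 to 513 in late CMDMs, and resident-like macrophages had 284 to 367. All 6 were called lower in late CMDMs than in either Ly6Chi fraction, and the same held for resident-like macrophages. The fall of the fibroblast genes was the larger one, so that the median ratio of Csf1 to 1000 CPM of fibroblast markers went from 4.20 in classical monocytes and 5.58 in early CMDMs to 14.3 in late CMDMs, and resident-like macrophages had 23.3. The part of the fibroblast RNA in the Csf1 differences was not tested. By Pearson correlation of log2 CPM over the 12 libraries, the genes most like Csf1 were Gsn, Medag (each 0.964) and Col14a1, a collagen of the dermis (0.963). For Csf1r they were Vps26a of the retromer (0.991), the dipeptidase gene Cndp2 (0.987) and the complement receptor gene C3ar1 (0.983). These and the other correlations over libraries share the fractions and are descriptions.

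Il34 was high in early CMDMs alone. The gene (chr8:110741829-110805924, minus strand) was measured at 29.6, 40.4 and 24.9 CPM there. It was at 4.06, 5.16 and 3.84 CPM in classical monocytes, at 4.06, 4.01 and 3.84 CPM in late CMDMs, and at 3.61, 4.97 and 2.35 CPM in resident-like macrophages. The early CMDM libraries lay above the other 9, which overlapped. The level was 7.25-fold higher than in classical monocytes (log2 fold change 2.86, SE 0.22, edgeR adjusted p = 5.94e-08). It was 7.96-fold lower in late CMDMs than in early CMDMs (adjusted p = 2.52e-07) and 8.69-fold lower in resident-like macrophages (adjusted p = 2.76e-08). The remaining 3 comparisons did not pass the test under TMM. Scaled by leukocyte genes, 2 of them did, late CMDMs against classical monocytes (0.75, adjusted p = 0.0383) and resident-like macrophages against late CMDMs (-0.85, adjusted p = 0.0265). The latter difference turned to 0.06 with DEGES, a repeated TMM without called genes.

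Keratinocyte markers rose and fell together with Il34. All 6 (Krt5, Krt14, Krt1, Krt10, Krt15 and Dsp) passed the test as higher in early CMDMs against classical monocytes, with a median log2 fold change of 2.95, and all 6 were called lower in each Ly6Clo fraction than in early CMDMs. For every 1000 CPM of summed keratinocyte markers there were 1.5 CPM of Il34 in classical monocytes (median, range 1.28 to 2.06), 1.46 in early CMDMs (1.24 to 1.48), 1.23 in late CMDMs (1.10 to 1.31) and 1.57 in resident-like macrophages (0.991 to 1.90). The ranges of the fractions overlapped, while the level of Il34 itself spanned 2.35 to 40.4 CPM. This ratio and those to other marker lists were chosen after the values had been seen. The genes most like Il34 were the desmoglein gene Dsg1c (r = 0.991), Wfdc5 and the epidermal transcription factor gene Sp6 (each 0.990). Il34 had r = 0.977 with the log2 sum of the keratinocyte markers and Csf1 had 0.580, while the 8 receptor genes had negative values. The part of keratinocyte RNA in the level of Il34 was not tested beyond these values.

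**Figure D2:**
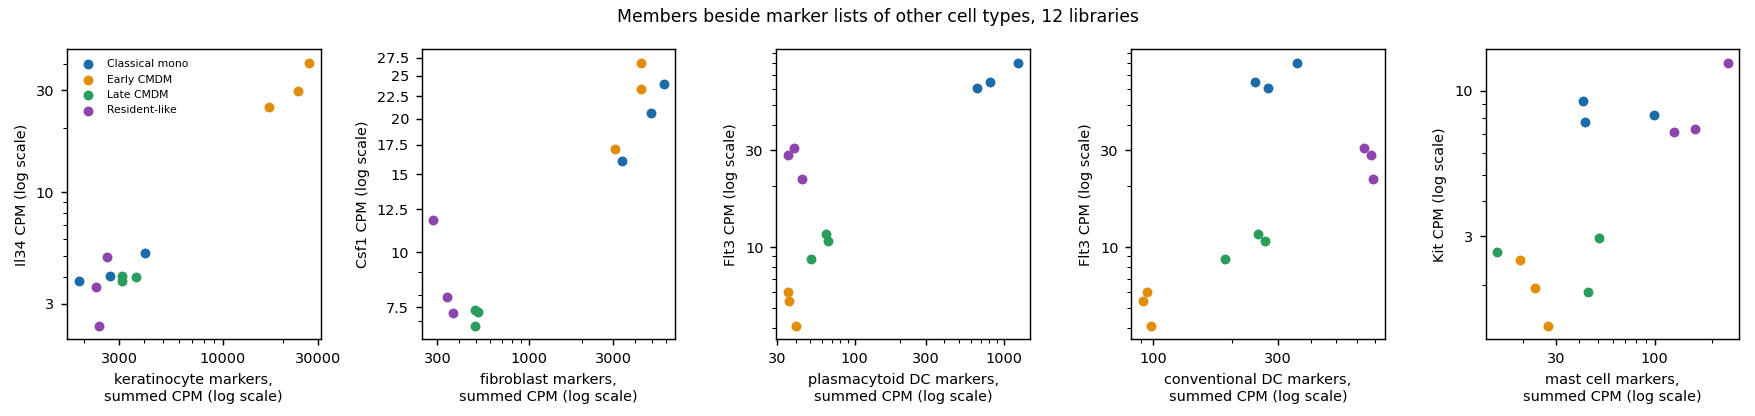
Members (vertical axes, CPM, log scale) against the summed CPM of marker genes of another cell type in the same library (horizontal axes, log scale), with 1 point per library coloured by fraction. Il34 lay along a line with the keratinocyte markers, at 0.991 to 2.06 CPM per 1000 CPM. Flt3 in classical monocytes stood with the plasmacytoid dendritic cell markers, at 660 to 1260 CPM, and Kit was highest in the resident-like library with the most mast cell marker RNA, 244 CPM.

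The GM-CSF receptor genes were lower in both CMDM fractions than in classical monocytes and resident-like macrophages under TMM, an order that on the leukocyte scale held only in part, as given below for each gene. Csf2ra, the alpha chain (chr19:61223957-61228429, minus strand), was measured at 226, 268 and 290 CPM in classical monocytes, at 73.6, 70.1 and 90.9 CPM in early CMDMs, at 130, 103 and 90.6 CPM in late CMDMs, and at 358, 384 and 371 CPM in resident-like macrophages. The resident-like libraries lay above all others and overlapped with none, followed by those of classical monocytes. Against classical monocytes, Csf2ra was 3.34-fold lower in early CMDMs (log2 fold change -1.74, SE 0.14, edgeR adjusted p = 6.27e-08) and 2.43-fold lower in late CMDMs (-1.28, SE 0.14, adjusted p = 2.41e-06). It was 1.42-fold higher in resident-like macrophages than in classical monocytes (0.51, SE 0.14, adjusted p = 0.0116). Resident-like macrophages had 4.74 times the level of early CMDMs (adjusted p = 5.88e-09) and 3.45 times that of late CMDMs (adjusted p = 1.47e-07). Late CMDMs passed the test against early CMDMs (0.46, SE 0.14, adjusted p = 0.0173). Scaled by leukocyte genes, the difference between early CMDMs and classical monocytes was 0.06 and did not pass the test (adjusted p = 0.725). That between late and early CMDMs was -0.45 (adjusted p = 0.0168). Both had changed sign, while resident-like macrophages stayed the highest fraction. In counts per 1000 counts of the leukocyte genes, Csf2ra was at 79.6 ± 3.59 (SD, n = 3) in resident-like macrophages and between 38.2 ± 7.10 and 52.2 ± 5.34 in the other fractions.

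Without 1 library, some of these calls were lost. The call of Csf2ra against classical monocytes in resident-like macrophages was lost without Classical mono replicate 1 (log2 fold change 0.42, adjusted p = 0.0586). That between late and early CMDMs was lost without Early CMDM replicate 1 (adjusted p = 0.0801), Early CMDM replicate 2 (adjusted p = 0.0885) or Late CMDM replicate 1 (log2 fold change 0.30, adjusted p = 0.124), and with DEGES (adjusted p = 0.086). Scaling by the total count alone also ended the former call (adjusted p = 0.0669).

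Csf2rb, the shared beta chain, was measured at 685, 839 and 901 CPM in classical monocytes, at 265, 254 and 352 CPM in early CMDMs, at 372, 359 and 373 CPM in late CMDMs, and at 924, 823 and 797 CPM in resident-like macrophages. The libraries of classical monocytes and resident-like macrophages overlapped and lay above all CMDM libraries. The level was 2.79-fold lower in early CMDMs than in classical monocytes (log2 fold change -1.48, SE 0.13, edgeR adjusted p = 2.08e-07) and 2.20-fold lower in late CMDMs (-1.14, SE 0.13, adjusted p = 5.55e-06). Resident-like macrophages had 2.92 times the level of early CMDMs (adjusted p = 1.15e-07) and 2.30 times that of late CMDMs (adjusted p = 5.59e-06). Resident-like macrophages and classical monocytes did not pass the test (0.07, interval -0.21 to 0.35, adjusted p = 0.775), a difference whose sign changed with the scaling. Late and early CMDMs just missed the threshold (0.34, SE 0.13, adjusted p = 0.0582) without overlap between their libraries. They passed it with DESeq2 (adjusted p = 0.0363), with RLE size factors (0.0485), in the fit of these 6 libraries alone (0.0431), without a filter (0.0282), without Classical mono replicate 3 (0.0391) and without Early CMDM replicate 3 (adjusted p = 0.00431), and the direction turned to -0.56 on the leukocyte scale (adjusted p = 0.00277). On that scale Csf2rb did not pass the test in early CMDMs (0.31, adjusted p = 0.0615) or late CMDMs (-0.25, adjusted p = 0.156) against classical monocytes, or in resident-like macrophages against early CMDMs (-0.08, adjusted p = 0.62).

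Csf2rb2, the beta chain of the IL-3 receptor, was measured at 236, 254 and 343 CPM in classical monocytes, at 99.97, 95.7 and 151 CPM in early CMDMs, at 166, 149 and 164 CPM in late CMDMs, and at 291, 261 and 234 CPM in resident-like macrophages. The order was that of Csf2rb, with early and late CMDM libraries that overlapped. It was 2.4-fold lower in early CMDMs than in classical monocytes (log2 fold change -1.27, SE 0.17, edgeR adjusted p = 1.87e-05) and 1.74-fold lower in late CMDMs (-0.80, SE 0.17, adjusted p = 0.0016). Resident-like macrophages had 2.27 times the level of early CMDMs (adjusted p = 3.46e-05) and 1.64 times that of late CMDMs (adjusted p = 0.00497), and did not pass the test against classical monocytes (-0.08, interval -0.44 to 0.27). The call between late and early CMDMs (0.47, adjusted p = 0.0463) was lost without any 1 of 8 libraries, which were Early CMDM replicates 1 and 2 and all those of late CMDMs and resident-like macrophages, with adjusted p between 0.0503 and 0.205. It was also lost with the total count only (adjusted p = 0.0507), DEGES (0.103) or no filter (0.0905). Without Early CMDM replicate 3 the difference grew to 0.71. Scaled by leukocyte genes, Csf2rb2 was higher in early CMDMs than in classical monocytes (0.51, adjusted p = 0.00398), late CMDMs (-0.42 for late against early) and resident-like macrophages (-0.43). The calls of late CMDMs against classical monocytes (0.09, adjusted p = 0.617) and of resident-like macrophages against late CMDMs (-0.0074, adjusted p = 0.969) were lost on that scale.

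The beta chains were also set against the leukocyte genes within each library. Csf2rb had 155 ± 16.2 counts per 1000 counts of the leukocyte genes in classical monocytes, 193 ± 14.1 in early CMDMs, 130 ± 6.02 in late CMDMs, and resident-like macrophages had 182 ± 12.8 (SD, n = 3). For Csf2rb2 these values were 53.2 ± 9.34, 75.8 ± 4.40, 56.5 ± 0.877 and 56.2 ± 5.73. Over the 12 libraries, the correlation of Csf2ra with Csf2rb was r = 0.975, and Csf2rb and Csf2rb2 had r = 0.968. Those most like Csf2ra were Camk1d (0.992), Bcl2a1d (0.991) and Bcl2a1b (0.990), the latter pair near-identical copies of a survival gene. For Csf2rb they were the sialyltransferase gene St3gal1, the phospholipase gene Plcg2 (each 0.995) and Zfp263 (0.994), and for Csf2rb2 the Toll-like receptor gene Tlr2 (0.988), Pxn and Csk (each 0.985).

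Some markers of other myeloid cells were high in the resident-like libraries. The Langerhans cell genes Cd207 and Epcam summed to a median of 1100 CPM there, against 68.0 to 207 CPM in the other fractions, and the 10 conventional dendritic cell genes to 679 CPM, against 94.8 to 275 CPM. Cd209a held most of the latter with 554 CPM. Of these 10 genes, 2 were called higher and 4 lower in resident-like macrophages relative to classical monocytes, with a median log2 fold change of -0.02. The part of these cells in the level of Csf2ra was not tested.

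Il3ra, the IL-3 receptor alpha chain (chr14:14346275-14356011, plus strand), followed Csf1r more than its beta chains. It was measured at 17.3, 15.2 and 18.2 CPM in classical monocytes, at 14.3, 10.3 and 15.4 CPM in early CMDMs, at 29.3, 28.6 and 20.9 CPM in late CMDMs, and at 29.8, 28.7 and 29.1 CPM in resident-like macrophages. All Ly6Clo libraries lay above all Ly6Chi libraries. It was 1.55-fold higher in late CMDMs (log2 fold change 0.63, SE 0.15, edgeR adjusted p = 0.00377) and 1.73-fold higher in resident-like macrophages (0.79, SE 0.15, adjusted p = 0.000951) than in classical monocytes. Against early CMDMs it was 1.97-fold and 2.19-fold higher (adjusted p = 0.000145 and 1.54e-05), which became 0.08 and -0.49 in log2 under the leukocyte scaling. Under TMM, early CMDMs did not pass the test against classical monocytes (-0.34, adjusted p = 0.0863, and 0.0439 without Early CMDM replicate 3). Nor did resident-like macrophages against late CMDMs (0.15, interval -0.16 to 0.47). On the leukocyte scale both differences turned and passed (1.44, adjusted p = 9.52e-08, and -0.58, adjusted p = 0.0113). Il3ra and Csf1r had r = 0.869 over the 12 libraries, and Il3ra had 0.431 with Csf2rb and 0.483 with Csf2rb2. Lsm10, Impact and Rgs10, a regulator of G protein signalling, were most like it (each 0.972).

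Csf3r was highest in late CMDMs. The gene (chr4:126024550-126044440, plus strand) was measured at 73.2, 85.3 and 79.2 CPM in classical monocytes, at 60.5, 42.7 and 61.1 CPM in early CMDMs, at 120, 99.7 and 93.2 CPM in late CMDMs, and at 72.2, 62.9 and 55.4 CPM in resident-like macrophages. Late CMDM libraries lay above all others, and early CMDM and resident-like libraries overlapped. Late CMDMs had 1.90 times the level of early CMDMs (log2 fold change 0.93, SE 0.14, edgeR adjusted p = 0.000113), and resident-like macrophages were 1.64-fold lower than late CMDMs (-0.72, SE 0.14, adjusted p = 0.00131). Early CMDMs were 1.45-fold lower than classical monocytes (-0.53, adjusted p = 0.00609), which turned to 1.26 when scaled by leukocyte genes. On that scale late and early CMDMs differed by 0.02. The call of late CMDMs over classical monocytes (0.40, SE 0.14, adjusted p = 0.0383) was lost without Classical mono replicates 1 or 3 or Late CMDM replicates 1 or 2 (0.29 to 0.44, adjusted p 0.0606 to 0.178), with the total count only (adjusted p = 0.0609) and with DEGES (0.0625). Resident-like macrophages did not pass the test against classical monocytes (-0.32, adjusted p = 0.124, and 0.0172 with the total count only). Under TMM they did not pass it against early CMDMs (0.21, adjusted p = 0.241), while on the leukocyte scale this difference was -1.42 and passed (adjusted p = 9.24e-09).

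The 7 neutrophil genes of the list (Ly6g, Cxcr2, Camp, Ltf, Ngp, Retnlg and Mmp8) summed to medians of 24.5 CPM in classical monocytes, 12 in early CMDMs, 15.1 in late CMDMs, and resident-like macrophages had 56.8, and 4 of the 7 were under 1 CPM in each fraction. The cells had been sorted as Ly6G-, and neutrophil RNA left in the libraries was not measured other than by these markers. The median ratio of Csf3r to 1000 CPM of these markers was 6650 in late CMDMs, and resident-like macrophages had 1110. Retnlg alone held 43.8 CPM in resident-like macrophages, while Mmp8 was highest in classical monocytes with 16.6 CPM and Cxcr2 was between 7.76 and 8.28 CPM in the 4 fractions. The part of neutrophil RNA in the level of Csf3r was not tested. Zfp729a (r = 0.954), Arhgef3 (0.937) and Iqgap2 (0.936) were most like Csf3r, the lowest likeness of the 10 genes.

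Flt3 had the largest differences among the receptors. The gene (chr5:147330741-147400489, minus strand) was measured at 80.8, 60.4 and 65.1 CPM in classical monocytes, at 4.08, 5.43 and 6.01 CPM in early CMDMs, at 11.5, 10.7 and 8.75 CPM in late CMDMs, and at 28.4, 21.7 and 30.8 CPM in resident-like macrophages. The libraries of the 4 fractions did not overlap, in the order classical monocytes, resident-like macrophages, late CMDMs and early CMDMs. Flt3 was 13.3-fold lower in early CMDMs than in classical monocytes (log2 fold change -3.73, SE 0.18, edgeR adjusted p = 4.95e-10), 6.66-fold lower in late CMDMs (-2.74, SE 0.17, adjusted p = 6.43e-09) and 2.55-fold lower in resident-like macrophages (-1.35, SE 0.16, adjusted p = 7.29e-06). Against these, resident-like macrophages had 5.21 times the level of early CMDMs (adjusted p = 3.04e-08) and 2.61 times that of late CMDMs (adjusted p = 1.56e-05). Late CMDMs had 2 times the level of early CMDMs (1.00, SE 0.19, adjusted p = 0.000648), a difference of 0.09 when scaled by leukocyte genes (adjusted p = 0.732). No comparison of Flt3 changed direction under the scalings tried.

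Plasmacytoid dendritic cell markers were, like Flt3, highest in classical monocytes. The 5 plasmacytoid dendritic cell genes (Siglech, Ccr9, Klk1, Cox6a2 and Pacsin1) summed to 660 to 1260 CPM in classical monocytes, and to medians of 36.3 to 64.5 CPM in the other fractions. All 5 were called lower in each of the other fractions than in classical monocytes. The ratio of Flt3 to 1000 CPM of conventional dendritic cell markers had medians of 59.5 in early CMDMs, 45.8 in late CMDMs, and resident-like macrophages had 41.8, while it was 228 in classical monocytes. Relative to the plasmacytoid markers, the medians were 80.0 in classical monocytes, 150 in early CMDMs, 172 in late CMDMs, and resident-like macrophages had 787. Resident-like macrophages had a median sum of 39.1 CPM of the plasmacytoid markers and late CMDMs had 64.5, while Flt3 was higher in the former. Of the 10 conventional dendritic cell genes, 7 were called lower in early CMDMs than in classical monocytes (20.6% of all genes) and 0 higher (24.2%). Against the same fraction, late CMDMs had 5 lower (17.5%) and 2 higher (18.1%), and resident-like macrophages 4 lower (12.9%) and 2 higher (10.8%). Cd209a had the highest mean of the 10 in every fraction, with its top in resident-like macrophages (554 CPM). The part of either cell type in the level of Flt3 was not tested. Selplg (r = 0.989), which encodes the ligand of P-selectin on leukocytes, Rap1gap2 and the death regulator gene Bcl2l11 (each 0.987) were most like Flt3.

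Kit had the lowest level per length of the 10 genes in every fraction. The gene (chr5:75574916-75656722, plus strand) was measured at 8.17, 9.22 and 7.74 CPM in classical monocytes, at 1.42, 1.96 and 2.46 CPM in early CMDMs, at 2.94, 1.88 and 2.63 CPM in late CMDMs, and at 12.6, 7.09 and 7.29 CPM in resident-like macrophages. The CMDM libraries, with 23 to 39 counts each, overlapped and lay under all others. Kit was 4.30-fold lower in early CMDMs (log2 fold change -2.10, SE 0.26, edgeR adjusted p = 6.15e-06) and 3.40-fold lower in late CMDMs (-1.77, SE 0.26, adjusted p = 4.98e-05) than in classical monocytes. Resident-like macrophages had 4.63 times the level of early CMDMs (adjusted p = 3.18e-06) and 3.67 times that of late CMDMs (adjusted p = 4.70e-05). Resident-like macrophages and classical monocytes did not pass the test (0.11, interval -0.36 to 0.58), and the sign turned to -0.22 without Resident-like replicate 1, which had 235 counts against 117 and 124. Late and early CMDMs did not pass it either (0.34, adjusted p = 0.434, and -0.56 on the leukocyte scale). Scaled by leukocyte genes, early CMDMs no longer passed the test against classical monocytes (-0.32, adjusted p = 0.258).

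The 7 mast cell genes (Cpa3, Mcpt4, Cma1, Tpsb2, Tpsab1, Mrgprb1 and Mrgprb2) summed to 127 to 244 CPM in resident-like macrophages, 42.0 to 99.0 in classical monocytes, 19.4 to 27.3 in early CMDMs and 14.7 to 50.5 in late CMDMs. The library with the most Kit was also that with the most mast cell RNA. Classical monocytes had a median of 180 CPM of Kit per 1000 CPM of mast cell markers and resident-like macrophages had 51.9, and the classical monocyte libraries, at 7.74 to 9.22 CPM of Kit, held less mast cell RNA than any resident-like library. The part of mast cells in the level of Kit was not tested. Sema4f (r = 0.991), Tle3 (0.975) and Rin3 (0.972) were most like Kit.

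**Figure D3:**
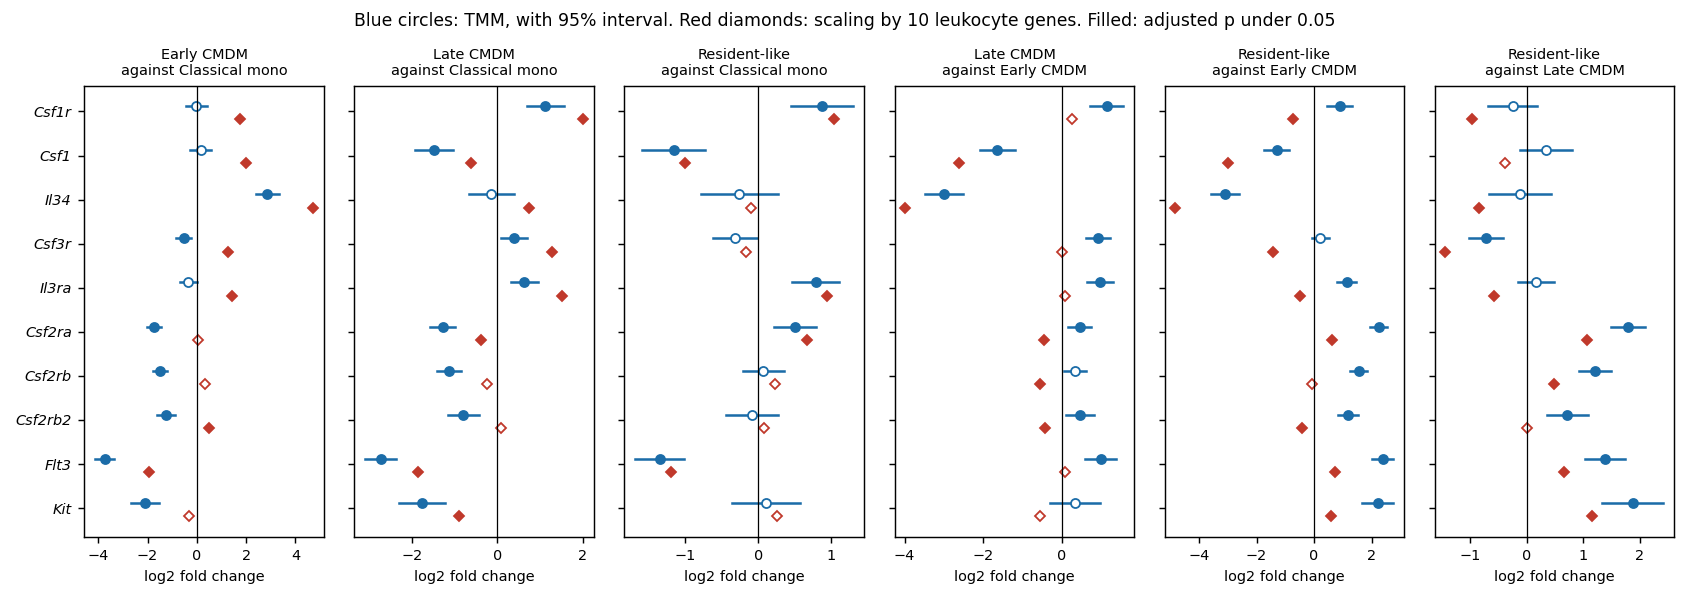
Log2 fold changes of the 10 genes (rows) in the 6 comparisons (panels; horizontal axes differ in range). Blue circles are the TMM-scaled fit with its 95% interval, red diamonds the fit scaled by 10 leukocyte genes, and filled symbols passed an adjusted p of 0.05. Flt3 was lower in early CMDMs than in classical monocytes under both scalings (-3.73 under TMM). In the same comparison Csf2ra, Csf2rb and Csf2rb2 changed sign on the leukocyte scale (0.06, 0.31 and 0.51). Of these, only Csf2rb2 passed the test there.

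The counts of members called in the 6 comparisons are set beside the share of all genes tested that was called (background), as a description. Between early CMDMs and classical monocytes 7 of the 10 were called, against a background of 44.9%. Il34 was higher (24.2% of all genes were) and 6 were lower (20.6%), and the libraries of 7 members did not overlap (54.4%). On the leukocyte scale 7 were called again, but 6 of them higher. Between late CMDMs and classical monocytes 9 of the 10 were called, against 35.6%. Csf1r, Csf3r and Il3ra were higher (18.1%) and 6 were lower (17.5%), 9 did not overlap (47.7%), and the leukocyte scale gave 4 higher and 4 lower. Between resident-like macrophages and classical monocytes 5 were called, against 23.7%. Csf1r, Csf2ra and Il3ra were higher (10.8%), Csf1 and Flt3 lower (12.9%), and 6 did not overlap (34.6%). The leukocyte scale gave the same numbers, and scaling by the total count gave 2 higher and 3 lower.

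Late against early CMDMs had 8 members called, against 31.9%. Of these, 6 receptor genes were higher (14.4%) and the ligands Csf1 and Il34 lower (17.5%), 7 did not overlap (49%), and on the leukocyte scale 0 were higher and 5 lower. Resident-like macrophages had 9 called against early CMDMs, beside 46.6% of all genes. Here 7 receptor genes were higher (21.4%) and both ligands lower (25.1%), 9 did not overlap (55.9%), and 3 were higher and 6 lower on the leukocyte scale. Against late CMDMs, resident-like macrophages had 6 called, beside 28.1%, with 5 higher (12.7%) and Csf3r lower (15.4%). In this comparison 7 did not overlap (43.1%), and 4 were higher and 4 lower on the leukocyte scale. The comparisons share libraries and are not independent of each other.

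The study defined a set of genes for each fraction as those higher than in each of a pair of other fractions. The pair was both CMDM fractions for classical monocytes, and classical monocytes and late CMDMs for early CMDMs. It was early CMDMs and resident-like macrophages for late CMDMs, and late CMDMs and classical monocytes for resident-like macrophages. By this definition Csf2ra, Csf2rb, Csf2rb2, Flt3 and Kit were in the set of classical monocytes, which held 12% of all genes tested. Il34 was in that of early CMDMs (12.3% of genes), Csf3r in that of late CMDMs (4.09%) and Csf2ra in that of resident-like macrophages as well (4.24%). Csf1r, Csf1 and Il3ra were in none. The set of classical monocytes thus takes no account of resident-like macrophages. Resident-like macrophages had Csf2ra called higher than in classical monocytes (log2 fold change 0.51). Csf2rb, Csf2rb2 and Kit did not pass that test (0.07, -0.08 and 0.11). On the leukocyte scale Csf2ra, Csf2rb, Csf2rb2 and Kit were not called lower in early CMDMs than in classical monocytes.

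Ratios between receptor genes within a library do not depend on its scaling. They were tested over the 4 fractions by an exact permutation test of the F statistic over all divisions of the 12 libraries into 4 groups of 3 (one-sided, on the log2 scale with 0.5 added to each count, adjusted over the 4 ratios). The ratio of Csf2rb to Csf1r, of the GM-CSF and IL-3 receptor chain to the CSF-1 receptor, had a median of 2.27 in classical monocytes (1.69 to 2.41), 0.708 in early CMDMs (0.689 to 0.873), 0.427 in late CMDMs (0.411 to 0.444) and 1.17 in resident-like macrophages (1.14 to 1.21). The libraries of the 4 fractions did not overlap, and the exact p was 6.49e-05, the smallest these divisions allow (adjusted 0.00026). Classical monocytes thus had more counts of the beta chain than of Csf1r, late CMDMs fewer, and resident-like macrophages were close to even.

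Csf3r to Csf1r had medians of 0.243 in classical monocytes, 0.147 in early CMDMs, 0.118 in late CMDMs, and resident-like macrophages had 0.0892 (exact permutation p = 0.000844, adjusted 0.00113). Classical monocyte libraries spanned 0.148 to 0.245 and overlapped with those of early CMDMs, from 0.123 to 0.157, while resident-like libraries lay under all others. Although late CMDMs had the highest level of Csf3r, they were thus low in it relative to Csf1r. Flt3 to Csf1r had medians of 0.173, 0.0121, 0.0128 and 0.0351 in the same order of fractions (exact permutation p = 0.000519, adjusted 0.00104). The CMDM fractions overlapped in this ratio, while classical monocytes and resident-like macrophages stood apart from them and from each other.

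Csf2rb2 to Csf2rb moved within a narrower range, with medians of 0.345 in classical monocytes, 0.377 in early CMDMs, 0.441 in late CMDMs, and resident-like macrophages had 0.315 (exact permutation p = 0.00331, adjusted 0.00331). Late CMDMs (0.416 to 0.445) and resident-like macrophages (0.294 to 0.317) did not overlap, while classical monocytes (0.303 to 0.380) overlapped with resident-like macrophages and early CMDMs. Reads of the shared windows of this pair, such as those of the exons printed above, could have been counted for either gene.

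**Figure D4:**
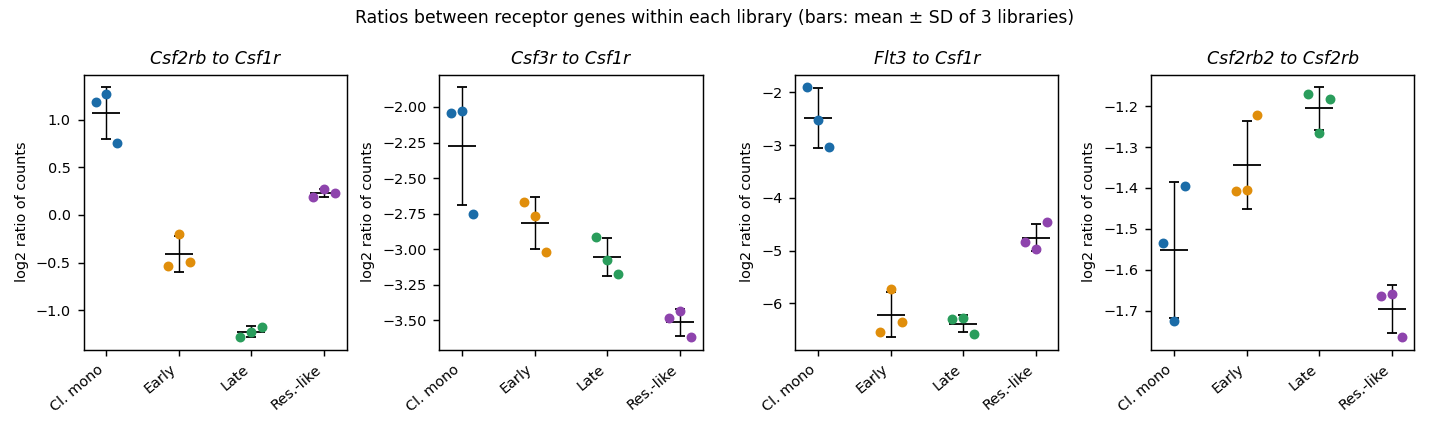
Log2 ratio of the counts of receptor genes within each library (vertical axes, 0.5 added to each count) in the 4 fractions; points are libraries, bars are mean ± SD of 3 libraries. The ratio of Csf2rb to Csf1r fell from 1.07 ± 0.28 in classical monocytes to -1.23 ± 0.06 in late CMDMs and was 0.23 ± 0.04 in resident-like macrophages.

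Levels of different genes were compared per length of their exons. In classical monocytes the order began with Csf2rb at 111 ± 15.3 CPM per kb, Csf2ra at 91.0 ± 11.4, Csf1r at 68.3 ± 21.3 and Csf2rb2 at 58.6 ± 12 (SD, n = 3). In early CMDMs it began with Csf1r at 67.7 ± 17.9, Csf2rb at 39.9 ± 7.39, Csf2ra at 27.2 ± 3.88, Csf2rb2 at 24.4 ± 6.49 and Il34 at 16.1 ± 4.06 CPM per kb. In late CMDMs Csf1r, at 150 ± 6.59, was apart from Csf2rb at 50.6 ± 1.05 CPM per kb. In resident-like macrophages Csf2ra at 129 ± 4.48, Csf1r at 125 ± 12.9 and Csf2rb at 117 ± 9.26 CPM per kb lay within their spread of each other.

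Other ligands of these receptors were low. Kitl, the ligand of KIT, was at 14.3 ± 3.59 CPM in classical monocytes, 32.4 ± 4.11 in early CMDMs, 13.4 ± 2.01 in late CMDMs, and resident-like macrophages had 8.17 ± 1.64. It was called higher in early CMDMs than in classical monocytes (log2 fold change 1.18, SE 0.18, edgeR adjusted p = 6.71e-05). It was called lower in late and in resident-like than in early CMDMs, the fraction in which Kit had its lowest mean. Keratinocyte marker RNA was also highest in early CMDMs. Per 1000 CPM of these markers, Kitl had medians of 5.54, 1.46, 4.13 and 3.14 CPM in the order of fractions above. The part of keratinocyte RNA in the level of Kitl was not tested. Csf3, which encodes G-CSF, was at 21.8 ± 0.751, 29.2 ± 5.67, 15.9 ± 3.42 and 30.0 ± 1.75 CPM in the same order, and lowest in late CMDMs, where Csf3r was highest. Flt3l was at 16.6 ± 1.82, 12.6 ± 1.48, 10.4 ± 0.268 and 12.8 ± 1.25 CPM, with classical monocytes above the other 3 fractions (adjusted p = 0.0205, 0.000821 and 0.0497). Il5 was under 1 CPM in every library, and Csf2, the gene of GM-CSF, had at most 17 counts in a library and was not tested. Il3 was not analysed here.

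Genes that act after the receptors were counted by lists drawn from general knowledge. Of 17 adaptor and enzyme genes of the receptor tyrosine kinases, such as the kinases Lyn and Fgr and the phosphatase Ptpn6, 14 were called lower in early CMDMs than in classical monocytes (20.6% of all genes were) and 0 higher (24.2%), with a median log2 fold change of -1.29, against -0.01 over all genes tested. In late CMDMs 13 were lower (17.5%) and 0 higher (18.1%), and in resident-like macrophages 8 were lower (12.9%) and 1 higher (10.8%), both against classical monocytes. Lyn went from 240 CPM in classical monocytes to 52.6 in early CMDMs, 82.5 in late CMDMs and then 136 in resident-like macrophages, Fgr from 143 to 23.3, 22.9 and 82.1 CPM, and Ptpn6 from 128 to 38.1, 59.3 and 102 CPM. The leukocyte scaling moved the median of all genes by 1.80 in the comparison of early CMDMs with classical monocytes, and of the genes named from this and the following lists only Fgr (-2.62) and Lyn (-2.19) fell by more than this.

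The 6 JAK and STAT genes encode kinases and transcription factors that act after cytokine receptors, among them Jak2 and Stat5a, which carry the signal of CSF2RB. Of these, 5 were called lower in early CMDMs than in classical monocytes (20.6% of all genes) and 0 higher (24.2%), and 3 were lower in late CMDMs (17.5%). Stat5a was at 91.1, 39.5, 49.2 and 91.0 CPM, Tyk2 at 42.5, 23.3, 29.1 and 37.4 CPM and Jak2 at 180, 103, 151 and 160 CPM, in the order classical monocytes, early and late CMDMs, resident-like macrophages. Among the 7 targets and feedback genes of STAT5, early CMDMs had 3 called higher (24.2%) and 1 called lower (20.6%) relative to classical monocytes. Cish, an inhibitor of this signal, rose from 29.9 to 99.1 CPM (log2 fold change 1.73, SE 0.15, edgeR adjusted p = 1.11e-07) and Ccnd2 from 77.6 to 168 CPM (1.12, SE 0.19, adjusted p = 0.000178), while the kinase gene Pim1 fell from 691 to 336 CPM (-1.04, SE 0.10, adjusted p = 5.22e-07). Stat5a and Pim1 thus had their lowest levels in the CMDM fractions under TMM, as Csf2rb did, while Cish was highest in early CMDMs. Keratinocyte marker RNA was also highest in early CMDMs, and its part in the levels of Cish and Ccnd2 was not tested.

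Of the 6 transcription factors of myeloid receptor promoters, early CMDMs had 1 higher (24.2%) and 3 lower (20.6%) relative to classical monocytes by the same test. Spi1, which encodes PU.1, was at 311, 152, 293 and 430 CPM in the same order of fractions, and Runx1 at 200, 73.6, 147 and 208 CPM. Cebpa was at 108, 248, 202 and 165 CPM and was called higher in all 3 macrophage fractions than in classical monocytes. Of the 3 receptor relatives, Il5ra, the IL-5 receptor alpha chain that also pairs with CSF2RB, was at 6.82, 3.97, 4.68 and 6.97 CPM. Pdgfra and Pdgfrb, the kinases of fibroblasts and pericytes that are related to CSF1R, were at 19.1, 13.9, 2.43 and 1.83 CPM and at 5.54, 5.94, 1.65 and 2.12 CPM. Both were higher in the Ly6Chi than in the Ly6Clo fractions, as Csf1 was.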

How the data were processed

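Bulk RNA-seq of 12 libraries, 3 for each of 4 sorted Mo-Mac fractions, was analysed, and each library's fraction was taken from its labels. The deposited table holds unnormalized counts by gene symbol. Per the paper's methods and the submitters' processing notes, the authors removed adapters with cutadapt 4.1, aligned reads by Bowtie2 2.4.5 to reference RNA of GRCm38 on 1 strand, counted reads per transcript and summed them by symbol. Reads shared by similar genes could be split by this counting. 0 columns of the table were left unused.

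Tests on these counts used edgeR 4.0.16 (R 4.3.3), TMM, filterByExpr and robust quasi-likelihood fits of all 12 libraries, with Benjamini-Hochberg adjustment over 22118 genes and a threshold of 0.05 in 6 comparisons. Each SE is the size of the log2 fold change over the root of F, and intervals are at 95%. The scripts were tested on simulated data. Chi-square values per degree of freedom between replicates lay from 4.24 to 21.9, and no library was a duplicate. Likeness was the Pearson correlation of log2 CPM (prior count 2) of each member with a mean of at least 1 CPM. It was taken with all tested genes other than members and gene models. Positions and exon lengths come from GENCODE M21, promoters from RefSeq. Named are all members, all other ligands, the 3 genes with the smallest adjusted p of each other list, and the 3 genes most like each member. The members and lists were chosen with earlier results of these data known. The alternatives were DESeq2 1.42.0, RLE size factors, total count only, DEGES (TMM recomputed without called genes, 3 rounds), scaling by 10 leukocyte genes, no filter, only the 6 libraries of a comparison, a replicate block, another pseudocount (ratios), and leaving out each library. TCC, which the study names, was not run.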

Additional observations from a re-analysis of the deposited data

How the results depend on the processing

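The 4 ratios kept their side of the threshold in all 56 alternatives, and the count of members called stayed within 1.5 times in 119 of 120. The exception was late against early CMDMs with 5 members called on the leukocyte scale, in place of 8. The number of members called takes no account of their direction. Of 1200 member fold changes under an alternative, 1123 kept direction and call, 29 lost the call, 13 gained it and 35 turned direction. The leukocyte scale alone gave 21 of the turned directions, 6 of the lost calls and 3 of the gained ones, and left 30 fold changes the same. The cause was not tested. Leaving out 1 library gave 7 to 8 members called for early CMDMs against classical monocytes, 8 to 9 for late CMDMs, 4 to 5 for resident-like macrophages, 6 to 9 for late against early CMDMs, 9 for resident-like macrophages against early CMDMs and 6 against late CMDMs.

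The log2 fold changes that turned on the leukocyte scale were as follows. For early CMDMs against classical monocytes they were Csf1r 1.76, Csf2ra 0.0598, Csf2rb 0.31, Csf2rb2 0.51, Csf3r 1.26 and Il3ra 1.44. For late CMDMs against classical monocytes they were Il34 0.75 and Csf2rb2 0.0887, and for resident-like macrophages Csf2rb2 0.0813. For late against early CMDMs they were Csf2ra -0.45, Csf2rb -0.56, Csf2rb2 -0.42 and Kit -0.56, and for resident-like macrophages against early CMDMs Csf1r -0.72, Csf2rb -0.0819, Csf2rb2 -0.43, Csf3r -1.42 and Il3ra -0.49. For resident-like macrophages against late CMDMs they were Csf1 -0.39, Csf2rb2 -0.0074 and Il3ra -0.58. DEGES turned Csf1r in early CMDMs against classical monocytes (0.0818), Csf2rb2 in resident-like macrophages against classical monocytes (0.0539) and Il34 in resident-like macrophages against late CMDMs (0.0620). With total count only, Csf2rb (-0.10) and Kit (-0.0599) turned in resident-like macrophages against classical monocytes, and without a filter Csf1r in early CMDMs against classical monocytes (0.0022). DEGES moved the median of all genes by 0.19 for resident-like macrophages against late CMDMs.

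Without 1 library, directions turned in differences that had not passed the test. These ranged from -0.22 to 0.27 for Csf1r in early CMDMs and from -0.22 to 0.0075 for Il34 in late CMDMs, both against classical monocytes. For resident-like macrophages they ranged from -0.0255 to 0.15 for Csf2rb, -0.18 to 0.10 for Csf2rb2 and -0.22 to 0.26 for Kit against classical monocytes, and from -0.40 to 0.11 for Il34 against late CMDMs.

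The libraries share replicate numbers, but only 4 of 18 pairs with the same number had a correlation of their deviations over 0.1 (-0.0987 to 0.248, against -0.215 to 0.171 for other pairs), so the numbers were not taken as a pairing. For 9 of the 12 libraries the best match had their own number, so a pairing that the labels do not state remains possible. With the replicate block, 7, 9, 5, 9, 9 and 6 members were called in the 6 comparisons in the order of the report, against 7, 9, 5, 8, 9 and 6 without it; the added call was Csf2rb between late and early CMDMs (adjusted p = 0.0383). Depth limits Kit in the CMDM fractions, with 23 to 39 counts per library.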
